A study of Mus musculus with 70 samples.

Results

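The genes described here encode the constitutive proteasome, the protease complex that degrades ubiquitin-tagged proteins in every cell. They were taken by name from an RNA-seq table of mouse forebrain microglia, as all genes whose symbol begins with Psma, Psmb, Psmc, Psmd or Psme and a digit, leaving out the immunoproteasome subunits Psmb8, Psmb9 and Psmb10 and all pseudogenes, with a mean of at least 1 RPKM (reads per kilobase of gene model, scaled to library size) over the 70 libraries. This gave 38 of the 43346 genes in the table. Of 42 genes with a fitting name, Psmd3 (1.35 RPKM), Psmd13 (1.59 RPKM) and Psmb3 (1.89 RPKM) were the lowest that passed the level threshold, and Psmc3ip (0.968 RPKM), Psmd9 (0.802 RPKM), Psma8 (0.407 RPKM) and Psmb11 (0.0353 RPKM) did not pass it.

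The mice carried 1 copy each of a tamoxifen-inducible Cre under the Cx3cr1 promoter (Cx3cr1-CreERT2-IRES-eYFP) and of an HA-tagged ribosomal protein (Rpl22HA), so that ribosome-bound RNA of Cx3cr1-expressing cells could be pulled down from brain lysate with an anti-HA antibody (RiboTag). All, controls included, had received 100 µg/g tamoxifen on 3 days. Pulldowns came from mice 24 h after intraperitoneal LPS (n = 3) and their saline controls (n = 4), mice 24 h after intraperitoneal Poly(I:C) (n = 3) and their saline controls (n = 3), APP/PS1 mice (n = 5) and controls (n = 5) aged 9 to 10 months, mice of the same age injected with rAAV1-TauP301L (n = 5) or rAAV1-GFP (n = 5), and females aged 3, 12 and 24 months (n = 5, 5 and 4) and males aged 3, 12 and 24 months (n = 5, 4 and 4). Whole forebrain lysate of saline mice (input, n = 4) and CD11b+ CD45lo/int cells sorted after 20 min of enzymatic digestion, from LPS-treated (n = 3) and saline (n = 3) mice, completed the 17 groups. The Cx3cr1 promoter also drives Cre in other brain macrophages, so a pulldown is not microglia alone.

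By whole reads worked back from the RPKM values, a library held 20.5 to 47.2 M reads in genes, and a proteasome gene had 1 to 14218 reads in a library, with a median of 740. Summed RPKM of 10 microglial markers was 291 to 2567 in the pulldowns and 20.3 to 24.7 in input, while 10 neuronal markers summed to 145 to 290 RPKM in the pulldowns and 452 to 526 RPKM in input, so the pulldowns also held neuronal RNA. The sorted libraries stood apart: 10 monocyte and neutrophil markers summed to 0.672 to 23.5 RPKM in the pulldowns and to 5463 to 48640 RPKM in sorted cells, although the gate was set for microglia. In these bulk samples, fewer cells of a type and less RNA per cell cannot be told apart.

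The 26S proteasome consists of a barrel, the 20S core, and a cap, the 19S regulatory particle. The core stacks rings of alpha subunits (Psma genes), which gate the channel, and beta subunits (Psmb genes), of which Psmb5, Psmb6 and Psmb7 carry the chymotrypsin-like, caspase-like and trypsin-like active sites. In the cap, a ring of ATPases (Psmc genes) unfolds the substrate. Some of the non-ATPase subunits (Psmd genes) bind ubiquitin chains or, as Psmd14 does, cut them off. Psme1 and Psme2 form the interferon-inducible PA28 activator, Psme3 the nuclear PA28 gamma and Psme4 the activator PA200. During immune responses interferon induces Psmb8, Psmb9 and Psmb10, which replace Psmb5, Psmb6 and Psmb7 in newly built cores and change the peptides made for antigen presentation. Psmd5 and Psmd10 are chaperones of cap assembly, counted here among the 19 cap genes, and Psme2b is an intronless copy of Psme2 whose reads may be shared with it, so the values of both are uncertain.

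Promoters are shown for 4 genes that stand for the patterns described next. Psme1 had the largest change after Poly(I:C), and Psmb5 is the chymotrypsin-like subunit. Psma5 is an alpha subunit called higher after LPS in pulldowns and with age. Psmd14, the deubiquitinating cap subunit, was called for an LPS response that differed between pulldown and sorted cells. This call and the LPS call of Psma5 were lost in some refits. Each promoter is the RefSeq window of 300 bases, 250 before and 50 after the annotated start. The build is GRCm38.p6, that of the table (mm10), and the letters run 5′ to 3′ on the strand of the gene. Capitals mark exact matches on either strand to the interferon-stimulated response element core (TTTC, any 2 bases, TTTC) in Psme1, the antioxidant response element core TGACNNNGC in Psmb5, the ETS core CCGGAA in Psma5 and the NF-Y box CCAAT in Psmd14; the last box holds matches on both strands that overlap. The windows are Psme1, chr14:55578244-55578543, + strand; Psmb5, chr14:54617946-54618245, - strand; Psma5, chr3:108256676-108256975, + strand; and Psmd14, chr2:61711444-61711743, + strand.
Psme1: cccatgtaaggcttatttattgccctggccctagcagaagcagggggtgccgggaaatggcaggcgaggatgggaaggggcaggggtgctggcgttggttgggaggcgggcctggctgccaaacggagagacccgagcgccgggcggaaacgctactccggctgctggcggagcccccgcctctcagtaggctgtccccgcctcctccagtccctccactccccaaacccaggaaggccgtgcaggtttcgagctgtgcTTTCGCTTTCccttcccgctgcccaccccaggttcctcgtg
Psmb5: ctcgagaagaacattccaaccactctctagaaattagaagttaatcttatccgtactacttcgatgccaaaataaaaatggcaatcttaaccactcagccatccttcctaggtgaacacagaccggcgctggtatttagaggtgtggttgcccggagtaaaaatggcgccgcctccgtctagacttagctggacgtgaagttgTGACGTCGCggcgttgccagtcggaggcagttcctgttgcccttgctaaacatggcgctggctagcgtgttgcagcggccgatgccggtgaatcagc
Psma5: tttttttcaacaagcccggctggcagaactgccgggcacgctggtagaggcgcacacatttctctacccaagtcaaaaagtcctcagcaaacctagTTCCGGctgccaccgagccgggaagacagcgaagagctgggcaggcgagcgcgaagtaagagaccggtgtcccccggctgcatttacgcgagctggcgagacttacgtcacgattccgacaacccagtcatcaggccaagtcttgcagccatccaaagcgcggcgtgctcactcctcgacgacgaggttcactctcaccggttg
Psmd14: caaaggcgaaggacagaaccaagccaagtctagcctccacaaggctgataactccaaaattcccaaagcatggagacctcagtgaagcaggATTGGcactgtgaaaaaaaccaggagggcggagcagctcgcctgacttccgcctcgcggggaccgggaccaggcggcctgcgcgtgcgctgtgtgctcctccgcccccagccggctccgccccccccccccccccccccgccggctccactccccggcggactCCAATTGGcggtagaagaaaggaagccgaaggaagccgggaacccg
RefSeq windows were at hand for 32 of the 38 genes, 35 windows in all. The ETS core lay in 51.4% of these windows and in 14.9% of all 32851 promoter windows, and the genes with it included Psma2, Psma5, Psma6, Psmb4, Psmc5 and Psmd2. The share with the NF-Y box was 34.3% among proteasome windows and 37.4% among all, and the share with the antioxidant element core was 14.3% against 12.4%, with the match in Psmb5, Psmb6, Psmc6, Psmd12 and Psme4. The interferon element core, chosen after the expression values were seen, was in 3 windows (Psmb3, Psmd4 and Psme1), 8.57% against 3.44% of all. Median GC content was 59% in proteasome windows and 52.7% in all windows. A match is a stretch of letters and not a measured binding site.

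Over all 70 libraries the highest means were those of Psmc5, an ATPase of the cap (14.8 RPKM), Psme1 (12.9 RPKM), the alpha subunit Psma6 (12.2 RPKM) and Psmb7 (11.9 RPKM). Psmc5 was the highest of the 38 in 11 of the 17 groups, Psme1 in LPS and Poly(I:C) pulldowns and in the TauP301L and GFP pulldowns, and Psma6 in both sorted groups. The spread between libraries differed between groups. The median coefficient of variation over the 38 genes was 6.19% in APP/PS1 controls and 6.32% in males aged 12 months, 23.9% in the saline pulldowns of the LPS experiment, 36.1% in sorted LPS cells and 52.9% in sorted saline cells.

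**Figure D1:**
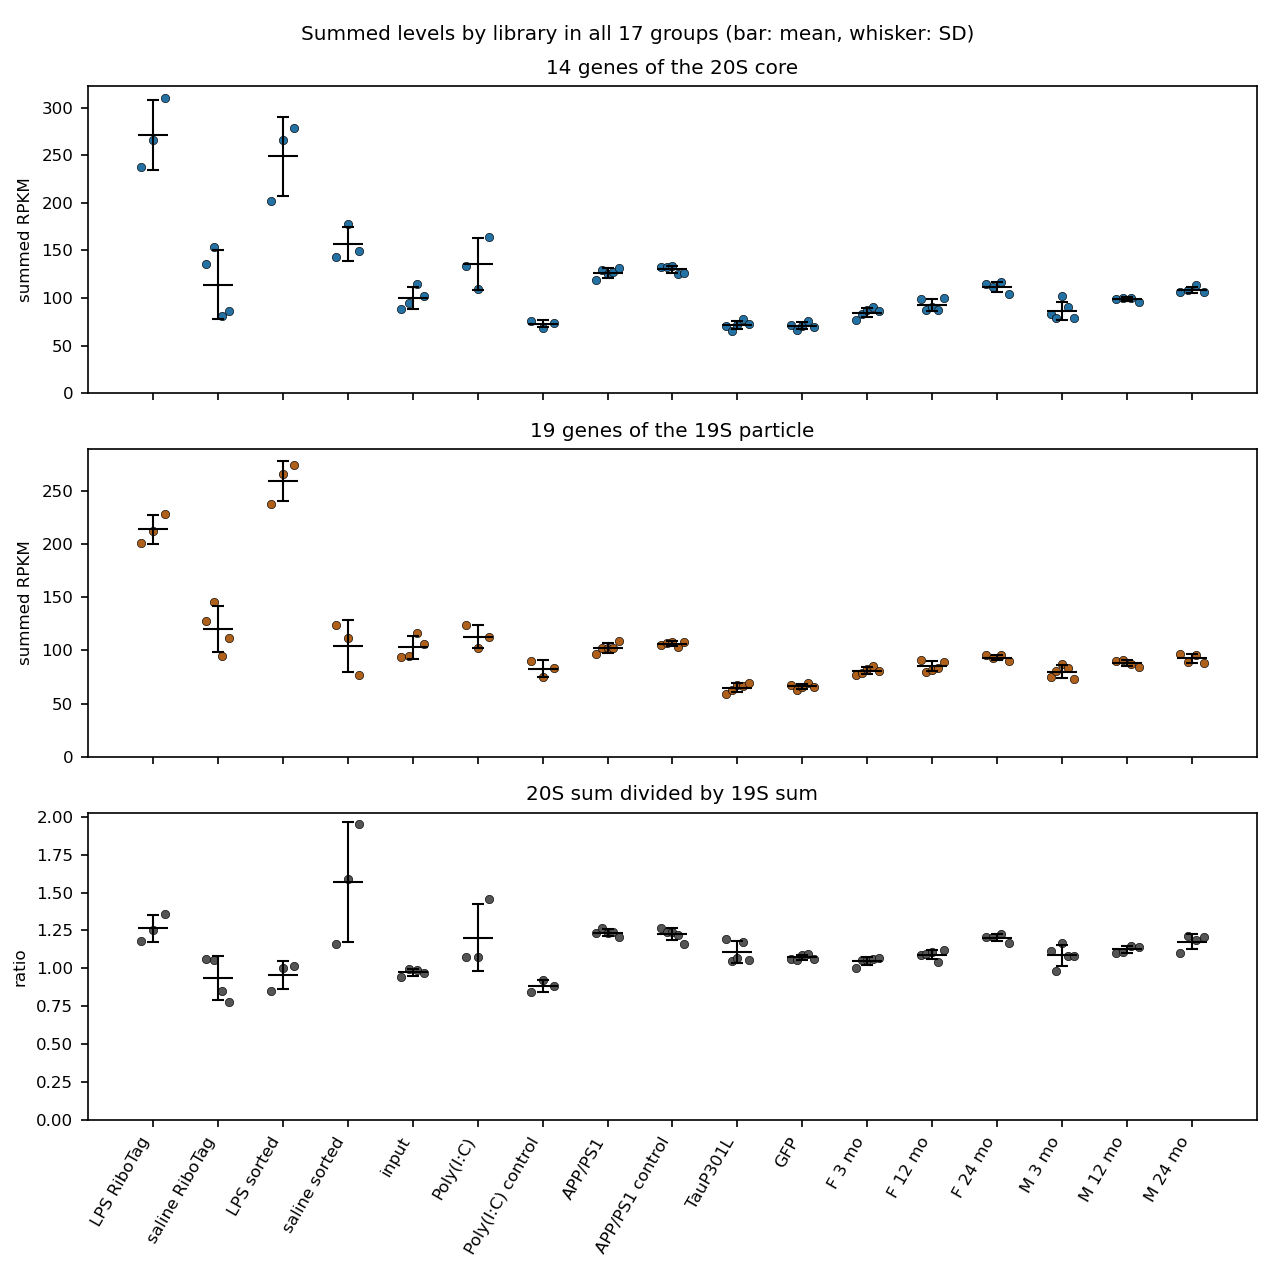
Summed RPKM of the 14 core genes, of the 19 cap genes and their ratio (y axes) for every library of the 17 groups (x axis); points are libraries, bars means and whiskers SD. LPS pulldowns reach 238 to 310 RPKM for the core, above the 81.2 to 154 RPKM of saline pulldowns. The mean ratio of core to cap is higher at each later age in both sexes, which was not tested. Male libraries overlap, with ratios of 0.983 to 1.17 at 3 months and 1.10 to 1.22 at 24 months, and female libraries of these ages do not.

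The first comparison asked which subunits the pulldown enriched over whole forebrain lysate. Saline pulldowns and inputs carry the same sample numbers in their titles, but the test took them as unpaired. The PA28 genes stood out, and the beta ring of the core did not. Psme1 had 16.6, 17.9, 6.78 and 6.58 RPKM in saline pulldowns, against 3.49, 2.42, 2.72 and 3.05 RPKM in input. All 4 pulldowns were above all inputs, and 2 of them by far more than the others (log2 change on log2(RPKM + 1) 1.60 ± 0.31 SE, adjusted p = 0.00144, limma). Psme2 had 6.30, 7.29, 3.74 and 3.40 RPKM in pulldowns, against 1.61, 1.23, 1.28 and 1.22 RPKM in input (log2 change 1.35 ± 0.20, adjusted p = 0.000324). The activator Psme4 had 11.9, 11.3, 14.1 and 15.5 RPKM in pulldowns, against 4.71, 4.82, 4.43 and 4.59 RPKM in input (log2 change 1.32 ± 0.12, adjusted p = 5.14e-05). The groups did not overlap for either gene. Psme3 did not pass, with 7.02 ± 1.32 RPKM in pulldowns and 6.05 ± 0.76 RPKM in input (SD, n = 4 each).

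Of the 38 genes, 14 were higher and 0 lower in the pulldown (two-sided limma test, Benjamini-Hochberg adjusted over all genes, p under 0.05), where 56.8% of all genes tested were higher and 10.5% lower. Before adjustment, 15 of the 38 had a p under 0.05, against 9012 of all 12780 genes tested. The median log2 change was 0.22 for the proteasome genes and 0.41 for all genes, and every pulldown was above every input for 12 of the 38, against 51.5% of all genes. By position in the complex, 3 of 7 alpha genes were higher, among them Psma1 (log2 change 0.77), 0 of 7 beta genes, 4 of 6 cap ATPases, such as Psmc4 (0.55), 3 of 11 non-ATPases, and 3 of 4 activators. Psmb5 averaged 8.08 ± 3.40 RPKM in pulldowns and 9.29 ± 1.74 RPKM in input, and Psmb7 averaged 9.84 ± 4.18 RPKM and 12.2 ± 2.0 RPKM in the same groups (SD, n = 4 each). Psmb8, the interferon-inducible counterpart of Psmb5, was at 3.13 ± 1.60 RPKM in pulldowns and 0.116 ± 0.065 RPKM in input, and the ratio of Psmb8 to Psmb5 was 0.380 ± 0.093 and 0.0122 ± 0.0057. Microglial markers rose by a median of 5.00 on the log2 scale in the same comparison, in which 4 of 4 tested perivascular macrophage markers and 4 of 5 erythroid markers were also higher and 9 of 10 neuronal markers lower; the part of these cells was not tested. The counts hung on the scaling: with median-of-ratios size factors, 4 proteasome genes were higher and 9 lower, against 31.7% and 23.7% of all genes, and the median was -0.15.

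Poly(I:C), a double-stranded RNA mimic that induces type I interferon, was followed by the largest changes in the PA28 genes and by smaller ones in the core. Psme1 had 22.6, 23.6 and 25.0 RPKM in Poly(I:C) pulldowns, against 4.27, 3.32 and 3.88 RPKM in their saline controls. The groups lay far apart, and the log2 change was 2.36 ± 0.11 (adjusted p = 3.76e-05). Psme2 had 8.77, 6.92 and 10.1 RPKM after Poly(I:C), against 2.11, 1.43 and 2.01 RPKM in controls (log2 change 1.75 ± 0.15, adjusted p = 0.000469), and its copy Psme2b changed by 1.40 ± 0.13. Psme3 and Psme4 did not pass. Psme3 had 7.91, 7.25 and 7.64 RPKM after Poly(I:C) and 5.91, 5.56 and 5.50 RPKM in controls, without overlap (adjusted p = 0.0609), while Psme4 averaged 9.61 ± 1.19 RPKM and 9.33 ± 0.42 RPKM in the same groups. The ratio of Psme1 to Psme3 was therefore 3.13 ± 0.23 after Poly(I:C) and 0.675 ± 0.068 in controls (SD, n = 3 each).

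The active-site subunits of the constitutive core rose together with the immunoproteasome subunits. Psmb5 had 8.11, 8.09 and 11.1 RPKM after Poly(I:C), against 4.84, 4.00 and 4.32 RPKM in controls (log2 change 0.90 ± 0.14, adjusted p = 0.00709). Psmb6 had 3.90, 3.97 and 5.09 RPKM after Poly(I:C), against 2.21, 2.15 and 2.63 RPKM in controls (0.67 ± 0.12, adjusted p = 0.0131). Psmb7 had 14.5, 10.7 and 20.1 RPKM after Poly(I:C), against 7.34, 4.91 and 5.59 RPKM in controls (1.19 ± 0.23, adjusted p = 0.0174). For each of these 3 genes every Poly(I:C) library was above every control, and 1 library was higher than the other two. Psmb8 changed by 1.92 ± 0.13 and Psmb9 by 1.54 ± 0.10, so that the ratio of Psmb8 to Psmb5 was 0.631 ± 0.019 after Poly(I:C) and 0.176 ± 0.012 in controls. The ratio of Psmb10 to Psmb7 was 0.447 ± 0.190 after Poly(I:C) and 0.358 ± 0.089 in controls, less than their spread.

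In all, 16 of the 38 genes were higher and 0 lower after Poly(I:C), against 6.27% of all genes higher and 0.23% lower. An unadjusted p under 0.05 was found for 28 of the 38, against 2145 of all 13505 genes tested. The median log2 change was 0.49 for the proteasome genes, -0.02 for all genes, and 0.48 without Psme1, Psme2 and Psme2b. The core had 9 of 14 genes higher, with Psma2 (log2 change 1.21), Psmb2 (1.14), Psmb4 (0.97), Psma6 (0.93) and Psma7 (0.72) among them, and the cap 4 of 19, namely Psmc5 (0.62), Psmd2 (0.50), Psmd12 (0.49) and Psmd4 (0.48). Libraries did not overlap, with Poly(I:C) higher, for 28 of the 38 genes, against 15.3% of all genes. Psmd14 averaged 6.79 ± 1.22 RPKM after Poly(I:C) and 5.23 ± 0.52 RPKM in controls and did not pass (adjusted p = 0.32). Microglial markers moved with these genes: 8 of 10 were higher, and their sum was 617 to 878 RPKM after Poly(I:C) and 291 to 308 RPKM in controls; their part in the result was not tested. The count was 9, 7 and 6 without control replicate 1, 2 or 3 and 8 without Poly(I:C) replicate 1, and 10 with no filter on low values.

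**Figure D2:**
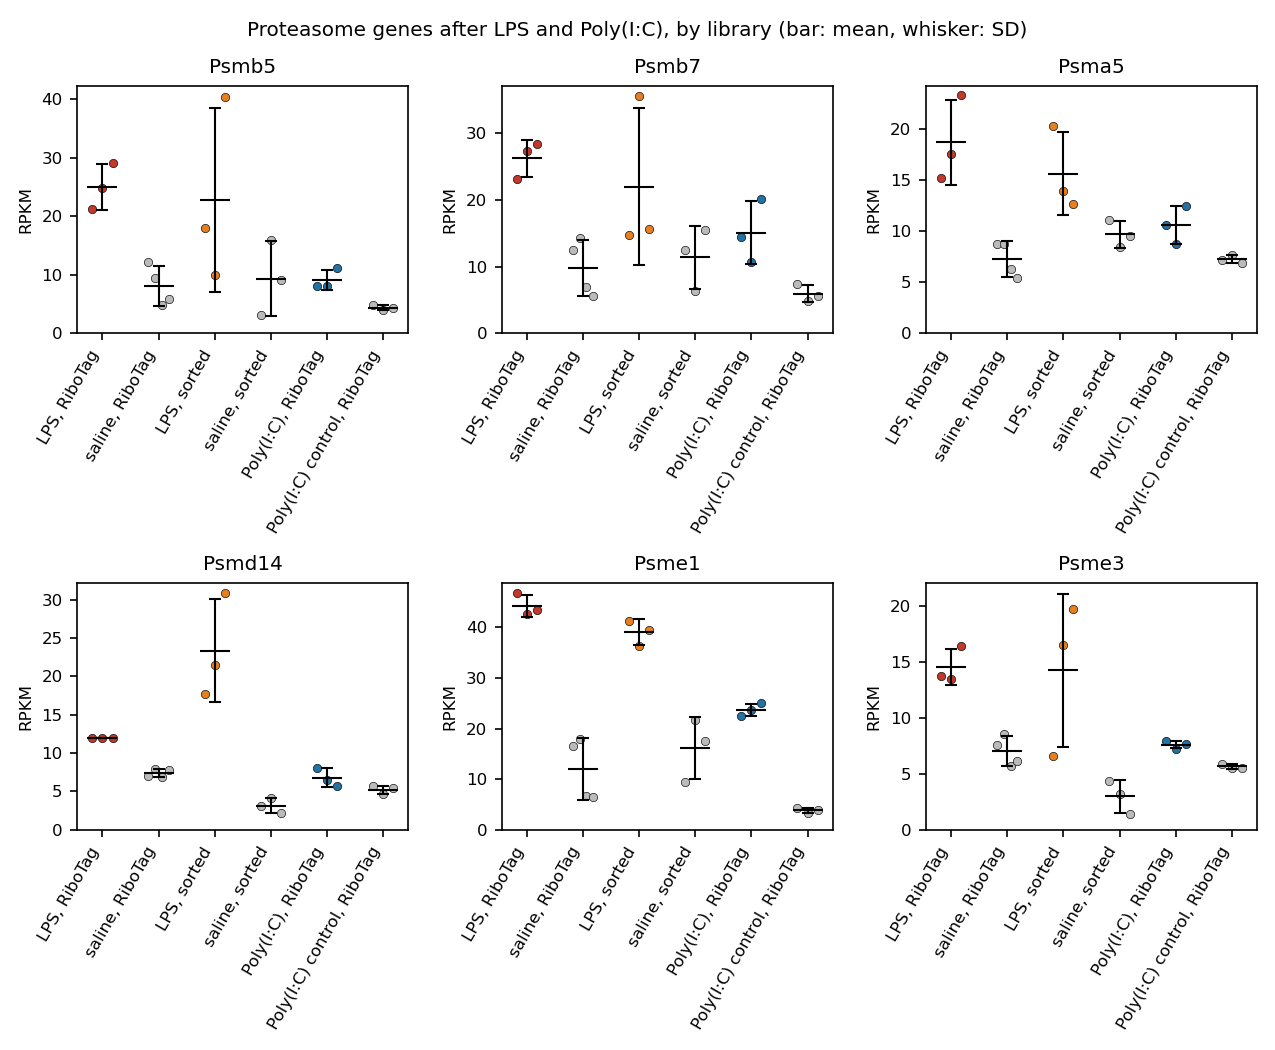
RPKM of 6 proteasome genes (panels, y axis) in the LPS and Poly(I:C) experiments (x axis), with each treated group left of its saline control; points are libraries, bars means and whiskers SD. Psme1 after Poly(I:C) lies at 22.6 to 25.0 RPKM, above 3.32 to 4.27 RPKM in controls, and Psmd14 after LPS at 11.9 to 12.0 RPKM in pulldowns and 17.8 to 30.8 RPKM in sorted cells.

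After LPS, a bacterial membrane component that triggers systemic inflammation, nearly every proteasome gene was at a higher level in the pulldowns, but few passed the test over all genes. Psme1 had 46.7, 42.6 and 43.4 RPKM in LPS pulldowns, against 16.6, 17.9, 6.78 and 6.58 RPKM in saline pulldowns. Its LPS values lay close together, while saline replicates 3 and 4 were far below replicates 1 and 2 (log2 change 1.93 ± 0.37, adjusted p = 0.0314). The beta subunit Psmb2 had 19.9, 22.6 and 26.2 RPKM after LPS, against 8.64, 9.23, 5.03 and 4.69 RPKM in saline (1.64 ± 0.35, adjusted p = 0.048). Psma5 had 15.2, 17.6 and 23.3 RPKM after LPS, against 8.79, 8.80, 6.28 and 5.38 RPKM in saline (1.25 ± 0.25, adjusted p = 0.0356). These were the 3 genes of 38 that rose, against 1.33% of all genes, and 0 fell, against 0.0288%. The other members had no adjusted p under 0.05. An unadjusted p under 0.05 was reached by 20 of the 38, against 1419 of all 13908 genes tested, and 37 members were above 0.

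Libraries did not overlap, with LPS higher, for 36 of the 38 genes, against 23.5% of all genes; the exceptions were Psme4 and Psme2b. Psme4 averaged 13.1 ± 1.6 RPKM after LPS and 13.2 ± 2.0 RPKM in saline. The median log2 change was 1.25 over the core, 0.73 over the cap, 0.82 over all 38 genes and 0.12 over all genes. Psmb5 had 21.3, 24.8 and 29.2 RPKM after LPS, against 12.2, 9.54, 4.81 and 5.80 RPKM in saline. All LPS values lay above all saline values, and the gene did not pass (adjusted p = 0.217). The ratio of Psmb8 to Psmb5 lay within the same range in both groups, 0.358 ± 0.018 after LPS (SD, n = 3) and 0.380 ± 0.093 in saline (SD, n = 4).

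The saline pulldowns fell apart. Replicates 3 and 4 were both below replicates 1 and 2 for 34 of the 38 proteasome genes and for 42.8% of all genes tested, and summed microglial markers were 694 and 750 RPKM in them against 1775 and 2073 RPKM in replicates 1 and 2. In LPS pulldowns that sum was 1847 to 2567 RPKM. Of the 10 microglial markers 1 was called higher after LPS, with a median log2 change of 0.84 over the 10. Of 5 tested perivascular macrophage markers 2 were higher after LPS, with a median log2 change of 1.28, and their sum was 42.1 to 56.0 RPKM in LPS pulldowns and 13.7 to 46.2 RPKM in saline pulldowns. The part of these cells in the result was not tested. Without saline replicates 3 and 4, 0 of 38 genes passed, against 0.0863% of all genes, and the median log2 change was 0.62. Leaving out any 1 LPS library or saline replicate 3 or 4 also left 0 genes, and leaving out saline replicate 1 left 1. When only the LPS and saline pulldowns entered the fit, and not the more variable sorted libraries, 30 of 38 genes passed, against 12% of all genes.

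In sorted cells, the genes called higher after LPS in the fit shared with the pulldowns were cap genes and Psme3. That fit took 1 spread per gene for all 4 groups. The median coefficient of variation was 36.1% and 52.9% in sorted LPS and saline cells, against 11.6% and 23.9% in the pulldowns. The SE and p-values given here for sorted cells may therefore be too small. Psmd14 had 17.8, 21.4 and 30.8 RPKM in sorted LPS cells, against 3.05, 4.16 and 2.22 RPKM in sorted saline cells. The groups lay far apart (log2 change 2.54 ± 0.24, adjusted p = 0.000194). Psmc1, an ATPase, had 37.8, 31.4 and 22.8 RPKM after LPS, against 5.50, 6.73 and 0.686 RPKM in saline, where replicate 3 was the lowest (2.82 ± 0.48, adjusted p = 0.00551). Psmc4, another ATPase, had 17.6, 11.2 and 35.9 RPKM after LPS, against 1.43, 3.39 and 6.05 RPKM in saline (2.27 ± 0.42, adjusted p = 0.00764). The scaffold subunit Psmd2 had 4.49, 7.26 and 5.95 RPKM after LPS, against 1.23, 1.55 and 2.15 RPKM in saline (1.38 ± 0.24, adjusted p = 0.00576).

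Of the 38 genes, 10 were higher and 0 lower in sorted LPS cells, against 7.01% of all genes higher and 1.81% lower. They were 9 of the 19 cap genes, with Psmd7, Psmc3, Psmd12, Psmc2 and Psmd1 besides those above, and the activator Psme3, and 0 of the 14 core genes. Psma6 had the largest core change, 54.8 ± 15.1 RPKM after LPS and 19.2 ± 13.1 RPKM in saline (SD, n = 3 each), and did not pass (adjusted p = 0.0629). The median log2 change was 0.68 for the 38 genes and 0.09 for all genes, and libraries did not overlap, with LPS higher, for 15 genes, against 13.1% of all genes. Summed monocyte and neutrophil markers were 12340 to 48640 RPKM in sorted LPS libraries and 5463 to 18250 RPKM in sorted saline libraries, with overlap. Of these 10 markers 0 were called higher and 1 lower after LPS. Of 10 microglial markers 0 were higher and 1 lower, and of 5 tested perivascular macrophage markers 1 was higher. The part of these cells in the result was not tested. With the sorted libraries fitted alone, 1 of the 38 genes passed, against 0.548% of all genes.

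The LPS response differed between pulldown and sorted cells for 1 of 38 genes, against 0.259% of all genes. That gene was Psmd14. It had 11.9, 12.0 and 12.0 RPKM in LPS pulldowns, against 6.97, 7.91, 6.86 and 7.79 RPKM in saline pulldowns, a smaller shift than in sorted cells (difference of log2 changes -1.91 ± 0.33, adjusted p = 0.0427). This call was lost with median-of-ratios scaling and when any 1 pulldown library was left out, and 2 genes passed without sorted saline replicate 2. At baseline Psmd14, Psmc1, Psmd2 and Psme3 were higher in saline pulldowns than in sorted saline cells, with log2 changes of 1.04, 1.32, 0.83 and 1.07, and Psme2b was lower (-1.40). These were 4 of 38 genes higher and 1 lower, where 27.8% of all genes were higher and 12.2% lower. In the same comparison 9 of 9 tested neuronal markers, 6 of 8 oligodendrocyte markers, 4 of 5 astrocyte markers, 4 of 5 perivascular macrophage markers and 5 of 5 erythroid markers were higher in pulldowns, and 8 of 10 microglial and 10 of 10 monocyte and neutrophil markers were lower; their part was not tested. The core genes had a median log2 change of -0.39 and the cap genes of 0.38 in that comparison. The sorted saline libraries also serve as controls of the LPS comparison, so their low cap values enter both. Leaving out saline pulldown replicate 1, 2 or 4 left 2 genes higher, and leaving out sorted saline replicate 1 or 3 gave 3 and 2 genes lower.

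Most core genes and both PA28 genes were higher in old than in young mice of either sex. Psme1 had 5.06, 5.82, 6.52, 6.75 and 5.88 RPKM in females aged 3 months, 6.93, 7.66, 7.98, 7.03 and 6.87 RPKM at 12 months, and 10.7, 10.3, 10.8 and 9.96 RPKM at 24 months. The ages did not overlap (24 against 3 months, log2 change 0.71 ± 0.09, adjusted p = 3.71e-06). In males it had 7.96, 5.56, 5.72, 6.18 and 4.85 RPKM at 3 months, 7.14, 9.27, 8.13 and 7.72 RPKM at 12 months, and 10.5, 9.71, 12.2 and 10.4 RPKM at 24 months. Here the 2 younger ages overlapped and the oldest lay above both (0.74 ± 0.09, adjusted p = 1.51e-06). Psme2 was higher by 0.51 ± 0.07 in old females and 0.55 ± 0.07 in old males, whereas Psme3 changed by 0.11 ± 0.05 and 0.10 ± 0.05 in females and males and did not pass.

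Among core genes, Psmb7 had 9.46, 8.44, 8.78, 9.02 and 8.15 RPKM in females aged 3 months, 10.1, 11.4, 10.2, 10.1 and 9.50 RPKM at 12 months, and 12.1, 10.4, 12.1 and 11.4 RPKM at 24 months. The oldest group was above the youngest without overlap (0.35 ± 0.06, adjusted p = 0.000248). In males Psmb7 had 9.53, 9.18, 10.1, 9.04 and 7.45 RPKM at 3 months, 10.6, 9.73, 11.1 and 11.1 RPKM at 12 months, and 10.8, 10.8, 10.9 and 11.8 RPKM at 24 months (0.27 ± 0.06, adjusted p = 0.00276). The alpha subunit Psma2 was higher at 24 than at 3 months by 0.49 ± 0.08 in females (adjusted p = 0.000113) and 0.34 ± 0.08 in males (adjusted p = 0.00364). Psmb2 changed by 0.47 ± 0.09 in females and 0.40 ± 0.09 in males, both past the threshold. The chaperone Psmd10 averaged 3.18 ± 0.15 RPKM at 24 months and 2.02 ± 0.46 RPKM at 3 months in females, and 2.93 ± 0.17 RPKM at 24 months and 1.94 ± 0.19 RPKM at 3 months in males, and was higher in both.

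In females 22 of 38 genes were higher and 0 lower at 24 than at 3 months, against 16.7% of all genes higher and 3.41% lower; libraries did not overlap for the same number of genes, against 16% of all genes. In males 21 were higher and 0 lower, against 17.2% and 6.21% of all genes, and libraries did not overlap for 15, against 12.7%. The median log2 change was 0.21 in females and 0.19 in males, and 0.05 and 0.04 over all genes in females and males. The core had 11 of 14 genes higher in females and 10 of 14 in males, and the cap 9 of 19 in females and 8 of 19 in males. Mean RPKM was higher at each later age for 33 of the 38 genes in females and 30 in males. That count was not made over all genes, whose median log2 change from 3 to 12 months was also above 0 (0.04 in females and 0.07 in males). The ratio of the summed core to the summed cap, which was not tested, was 1.05 ± 0.03, 1.09 ± 0.03 and 1.20 ± 0.02 in females and 1.09 ± 0.07, 1.13 ± 0.02 and 1.18 ± 0.05 in males at 3, 12 and 24 months (SD).

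The sexes shared 16 of these genes, 72.7% of the female and 76.2% of the male genes called. The share common to both sexes was not counted over all genes. Psmb5, Psmb6, Psmc4, Psmc6, Psmd8 and Psmd12 passed in females alone, and Psma4, Psmc1, Psmc5, Psmd11 and Psme2b in males alone, but no difference between the sexes in the change from 3 to 24 months passed: 0 of 38 genes by limma, against 0.0916% of all genes. For that difference 1 member (Psme4) had an unadjusted p under 0.05, against 1765 of all 14198 genes tested. Psmb5 was among the genes that passed in females alone. It had 10.4, 10.2, 10.8 and 10.9 RPKM in females at 24 months, against 6.68, 7.56, 9.06, 8.71 and 6.72 RPKM at 3 months (0.41 ± 0.13, adjusted p = 0.0242). In males it had 8.65, 7.74, 10.3 and 9.14 RPKM at 24 months, against 8.59, 5.85, 11.1, 7.89 and 6.39 RPKM at 3 months, where the widely spread young males overlapped the old (0.18 ± 0.13, adjusted p = 0.345). The difference of the changes was 0.24 ± 0.18 (adjusted p = 0.627). Between females and males over the 3 ages, 0 of 38 genes passed, against 2.99% of all genes. Unadjusted, 2 of the 38 had a p under 0.05, against 2089 of all 14198 genes tested. The smallest p of a member was that of Psmc4 (-0.12 ± 0.04, adjusted p = 0.0736).

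At 12 months few or no proteasome genes passed. In females 0 of 38 genes passed, against 2.94% of all genes. An unadjusted p under 0.05 was found for 8 of the 38 and for 2930 of all 14198 genes tested. Psmb7 had the second smallest p of the members, after Psmc2 (adjusted p = 0.0606 and 0.0522 for Psmb7 and Psmc2). In males 6 were higher, Psmb7, Psmc2, Psmc3, Psmd4, Psmd13 and Psme1, a share near the 12.4% of all genes called higher, with Psme1 at 0.37 ± 0.09 (adjusted p = 0.01). That male count was 14 without replicate 3 of the males aged 3 months, and 1 to 3 without replicate 2 or 5 of that age or replicate 1, 2 or 3 of the males aged 12 months, and it was 1 with median-of-ratios scaling, against 4.63% of all genes, and 0 when the 2 compared ages were fitted alone, against 3.14%. Of the microglial markers, 10 of 10 were higher in males at 12 than at 3 months and 0 of 10 in females, and 3 of 5 tested perivascular macrophage markers were higher in males and 1 of 5 in females, where 4 of 5 erythroid markers were lower. Their part in the result was not tested.

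The immunoproteasome subunits Psmb8 and Psmb9 were higher at 24 months in both sexes. Psmb8 was higher at 24 than at 3 months by 0.72 ± 0.07 in females and 0.78 ± 0.07 in males, and Psmb9 by 0.62 ± 0.08 and 0.82 ± 0.08 in females and males. The ratio of Psmb8 to Psmb5 was 0.317 ± 0.031 at 24 months and 0.214 ± 0.028 at 3 months in females, and 0.376 ± 0.019 at 24 months and 0.199 ± 0.030 at 3 months in males (SD). The ratio of Psmb10 to Psmb7 was 0.542 ± 0.059 at 24 months and 0.546 ± 0.025 at 3 months in females, within its spread. Microglial markers also rose with age: 6 of 10 passed in females and 10 of 10 in males at 24 months, and their sum was 933 to 1001 RPKM at 24 months and 517 to 668 RPKM at 3 months in females, and 845 to 1021 RPKM at 24 months and 491 to 664 RPKM at 3 months in males. In females 7 of 8 oligodendrocyte markers were also higher, with sums of 173 to 199 RPKM at 24 months and 120 to 142 RPKM at 3 months, and 4 of 5 erythroid markers were lower; in males 2 of 8 oligodendrocyte markers were higher and 5 of 10 neuronal markers lower, against 1 of 10 in females. Of 5 tested perivascular macrophage markers, 2 were higher in females and 3 in males, and of 7 astrocyte markers, 2 were higher in females and 1 in males. The part of these cells in the result was not tested. With median-of-ratios scaling the counts at 24 months were 17 higher and 1 lower in females, against 11.3% and 8.98% of all genes.

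**Figure D3:**
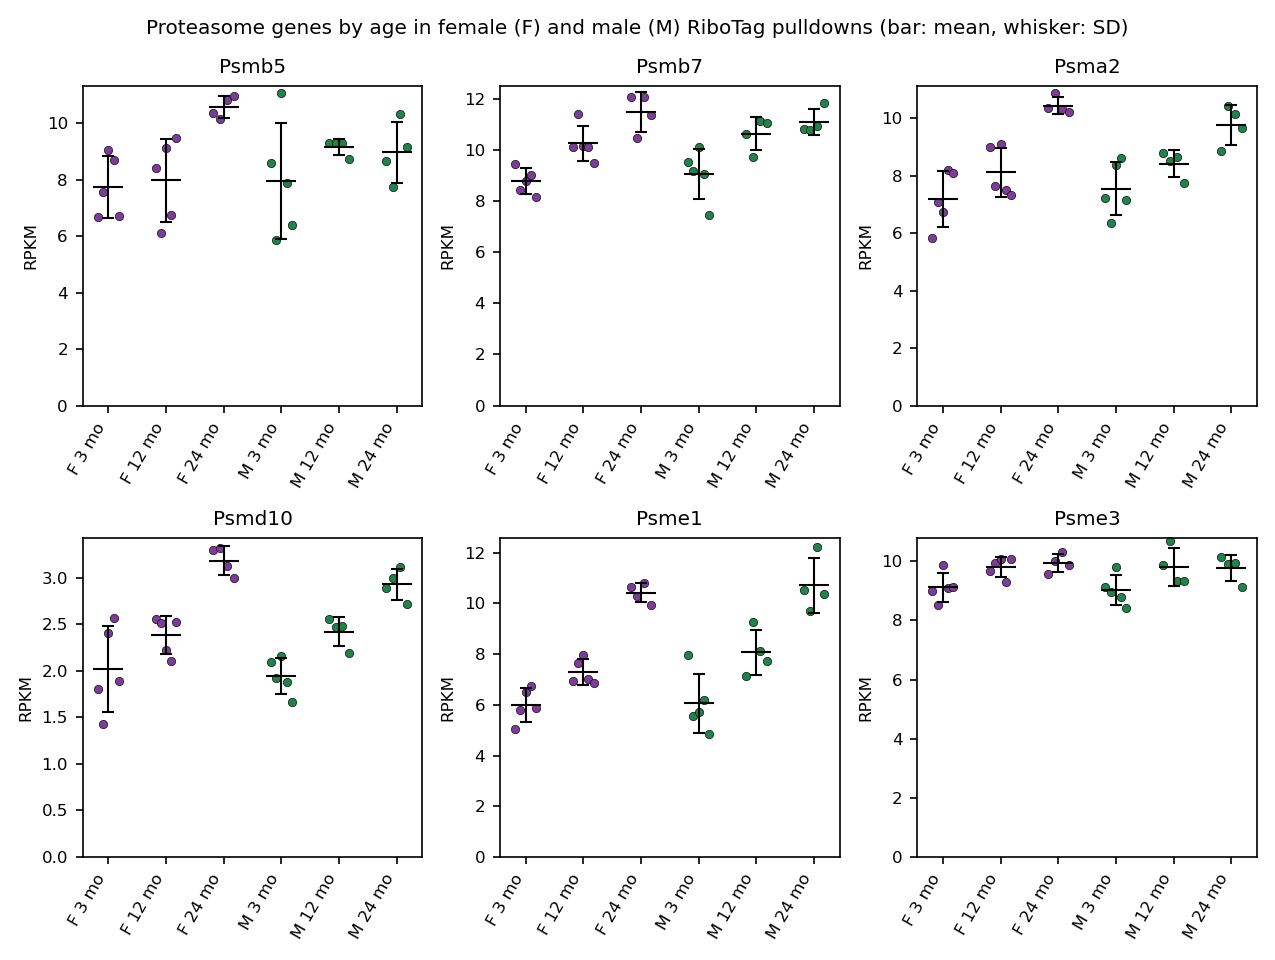
RPKM of 6 proteasome genes (panels, y axis) in pulldowns of females and males aged 3, 12 and 24 months (x axis); points are libraries, bars means and whiskers SD. Psme1 lies at 9.96 to 10.8 RPKM in females at 24 months, above 5.06 to 6.75 RPKM at 3 months, while Psme3 averages 9.94 and 9.13 RPKM at these ages.

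In the amyloid and tau models no proteasome gene passed the test. APP/PS1 mice carry mutant APP and presenilin transgenes and form amyloid plaques. Psmb5 had 13.2, 13.9, 11.2, 11.9 and 13.4 RPKM in APP/PS1 pulldowns, against 12.7, 13.8, 13.2, 11.8 and 12.3 RPKM in controls. The groups overlapped throughout (log2 change -0.01 ± 0.06, adjusted p = 0.95). Psme1 had 14.9, 12.8, 14.3, 10.9 and 13.3 RPKM in APP/PS1 mice, against 12.4, 13.5, 12.1, 11.1 and 11.4 RPKM in controls, again with overlap (0.12 ± 0.07, adjusted p = 0.434). None of the 38 genes passed by limma, 0 against 1.31% of all genes. Unadjusted, 8 of the 38 had a p under 0.05, against 2533 of all 14431 genes tested. Log2 changes ran from -0.16 (Psma5) to 0.14 (Psma2). The median was -0.03 for the proteasome genes and for all genes, and 10 of the 38 were above 0. Every APP/PS1 library was below every control for 4 of the 38, against 4.15% of all genes. These were the cap genes Psmc1, Psmc3, Psmd1 and Psmd11, with log2 changes of -0.13, -0.13, -0.12 and -0.12.

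The tau model was made by viral delivery of TauP301L, a mutant form of the microtubule protein tau, against a virus carrying GFP. Here 36 of the 38 genes were tested, since Psmd3 and Psmd13 fell under 1 RPKM. Psme1 had 14.2, 14.1, 12.7, 12.5 and 11.6 RPKM in TauP301L pulldowns, against 10.3, 9.34, 13.1, 14.4 and 11.2 RPKM in GFP pulldowns, where the wider spread lay in the GFP group (0.16 ± 0.10, adjusted p = 0.491). Again 0 genes passed by limma, against 1.25% of all genes. At an unadjusted p under 0.05 there were 4 members, against 2144 of all 12864 genes tested. Log2 changes ran from -0.16 (Psmd5) to 0.24 (Psme2), with a median of -0.03 against -0.01 over all genes. The difference between both models also passed for 0 of 38 genes, against 0.847% of all genes. For it 1 member (Psma6) had an unadjusted p under 0.05, against 2100 of all 13810 genes tested.

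**Figure D4:**
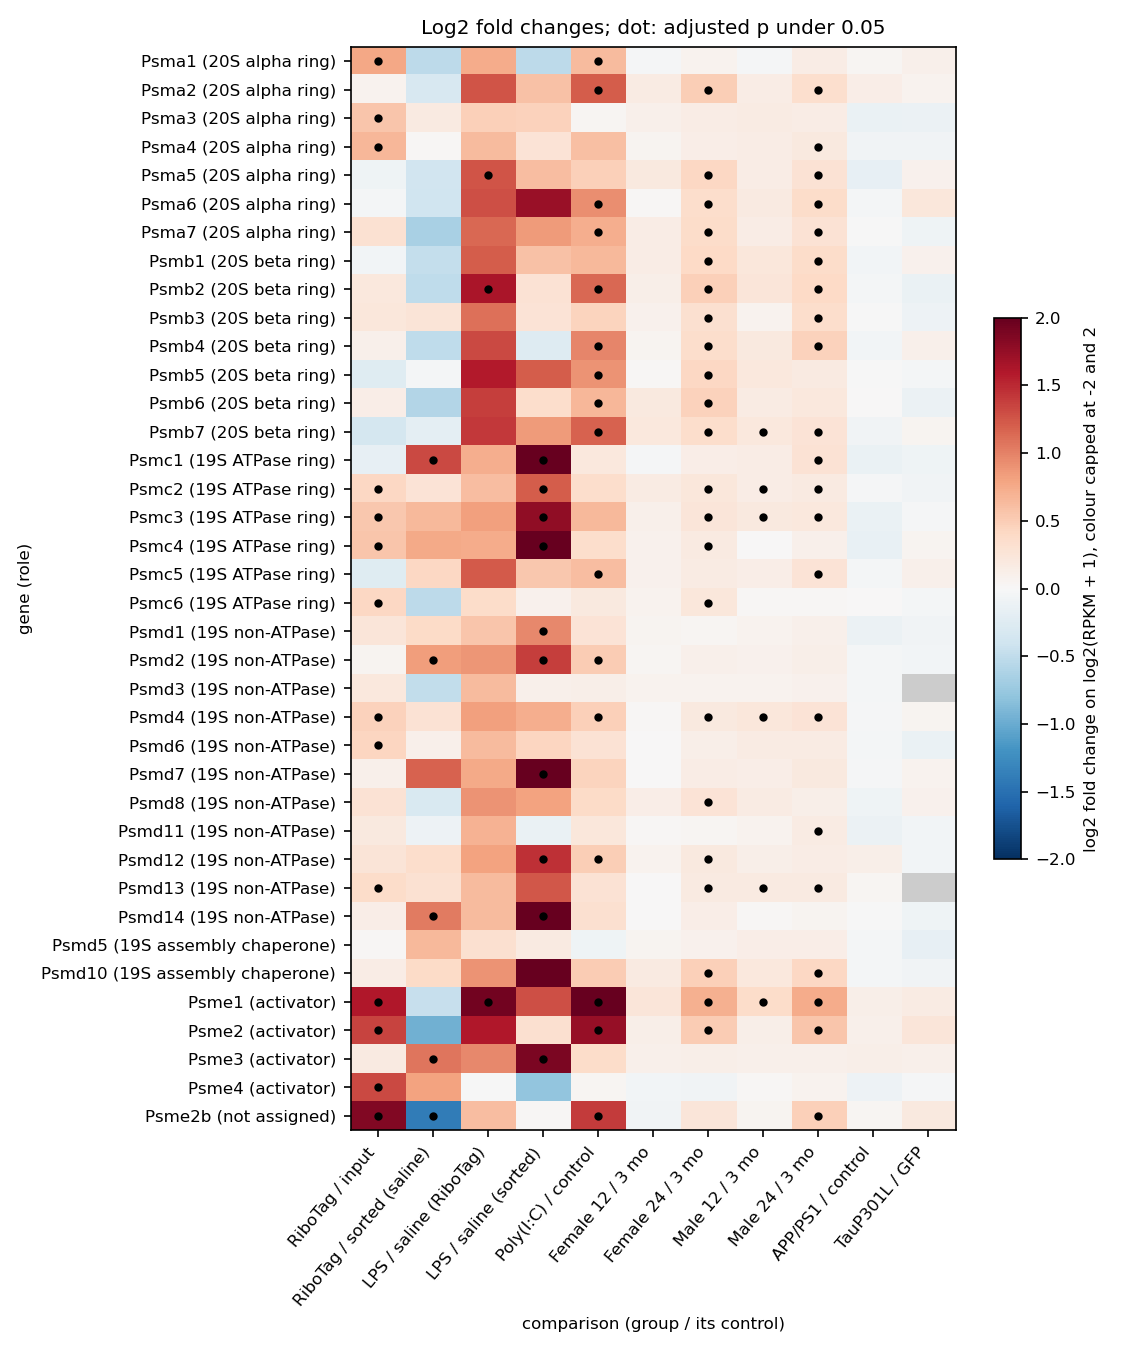
Log2 fold changes (colour) of the 38 genes, grouped by role (rows), in 11 comparisons (columns); a dot marks an adjusted p under 0.05 and grey a gene not tested. Dots gather in the core rows for Poly(I:C) and age and in the cap rows for LPS in sorted cells, and the amyloid and tau columns have 0.

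Genes that work with the proteasome were followed as a list of 31 in the table: among them assembly factors, shuttles and the regulators Nfe2l1 and Nfe2l2. After Poly(I:C) 7 of 28 tested were higher and 0 lower, against 6.27% and 0.23% of all genes, led by Pomp, the chaperone of core assembly (log2 change 1.82, adjusted p = 0.00191). At 24 against 3 months 10 of 30 were higher in females, against 16.7% of all genes, and 9 of 30 in males, against 17.2%, and 0 lower in either. Nfe2l2, a regulator of the oxidative stress response, changed by 0.78 in females (adjusted p = 1.24e-07) and 0.77 in males (adjusted p = 1.04e-07), and Pomp by 0.55 in females and 0.44 in males. In APP/PS1 and TauP301L pulldowns 0 passed by limma, against 1.31% and 1.25% of all genes. An unadjusted p under 0.05 was found for 7 of 30 tested in APP/PS1 and 3 of 28 in TauP301L. Among all genes tested, 2533 of 14431 in APP/PS1 and 2144 of 12864 in TauP301L had such a p. In the pulldown against input, 12 of 29 tested were higher and 1 lower, where 56.8% of all genes were higher and 10.5% lower. Nfe2l2 had the largest change of the list there (2.64, adjusted p = 0.000106 by limma). Microglial markers rose from 3 to 24 months by a median log2 change of 0.60 in females and 0.76 in males. Their part in the age changes of Nfe2l2 and Pomp was not tested.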

How the data were processed

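The deposited table gives RPKM per gene and library, made by the authors; CASAVA, TopHat2, featureCounts and the build mm10 are named in the submitters' processing notes, and their versions, the annotation and the strand setting are not given in the sources used here. Reads were recovered from the deposited RPKM steps. These came out whole to within 0.01 read for 100% of the values checked, which left out those with the most reads. The precision of low genes is therefore limited by counting. Genes averaging 1 RPKM or more over the libraries of a fit were tested as log2(RPKM + 1) with limma 3.58.1 in R 4.3.3 (eBayes with trend), with Benjamini-Hochberg adjustment over all genes. A fold change on this scale understates that of low genes. The LPS experiment (4 groups) and the ageing groups (6 groups) each shared a fit; there were 15 comparisons. The labels do not say for every group that libraries are separate animals, and p-values measure the spread between libraries. Members, lists, motifs and tests were chosen with earlier results of these data known. Values by library are given for the active-site subunits, for fixed examples of each role and for the smallest p-values in a comparison. The procedure was tested on simulated data, where it made more false calls for LPS in sorted cells than in the other comparisons. It missed most small changes, and many larger ones, for LPS in pulldowns, LPS in sorted cells and pulldown against sorted cells. Alternatives were a pseudocount of 0.1 RPKM, no filter, median-of-ratios scaling, a replicate block, fits of the compared groups alone and leaving out each library (94 refits); leaving out saline pulldowns 3 and 4 together was added after seeing the data. The response of proteasome-associated genes to LPS is not reported here.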

Additional observations from a re-analysis of the deposited data

Results flagged for a closer look

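In 6 of 132 group values screened for the named genes, 1 library lay far from the others of its group; chance flags about 1 in 20 groups. In input, replicate 3 was high for Psmd2 (4.10 RPKM) and Psme3 (7.18 RPKM), and replicate 1 was high for Psme2 (1.61 RPKM). Psmb6 was 6.49 RPKM in APP/PS1 control replicate 3, Psmb5 was 8.75 RPKM in replicate 4 of the males aged 12 months, whose other libraries were at 9.30 RPKM, and Psmb7 was 11.8 RPKM in replicate 5 of the males aged 24 months. The LPS response of Psmd14 differed between pulldown and sorted cells by -1.91 on the log2 scale.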

How the results depend on the processing

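Counts of proteasome genes called higher were within 1.5 times under the alternatives other than those given here. Median-of-ratios scaling gave 4 higher and 9 lower for pulldown against input. Among genes called with or without it, Psmc6 (-0.0165), Psmd14 (-0.27), Psmd2 (-0.31), Psmd5 (-0.33) and Psmd7 (-0.33) turned below 0. Other members that turned below 0 without a call are not listed. The same scaling gave 1 gene higher for LPS in pulldowns, 0 for the difference between LPS responses, 1 lower in females at 24 months, 1 higher in males at 12 months and 1 lower between the sexes. With the replicate block, 0 genes were called for LPS in pulldowns, 0 for the difference between LPS responses and 3 in males at 12 months. In no comparison did all pairs of same-numbered libraries correlate over 0.1 in their deviations. With so few libraries per group this cannot tell whether same-numbered samples are paired. Saline pulldowns and inputs share sample numbers in their titles, so they may be paired whatever these correlations are. The main tests took all libraries as unpaired. With only the compared groups, LPS gave 30 genes in pulldowns and 1 in sorted cells, and males at 12 months 0. No filter gave 10 after Poly(I:C) and 1 in males at 12 months, and the smaller pseudocount 1 in females at 12 months. Without saline pulldowns 3 and 4, 0 were called for LPS. Leaving out 1 library at a time, the counts were 2 to 6 higher and 1 to 3 lower for pulldown against sorted cells, 0 to 3 for LPS in pulldowns, 0 to 2 for the difference between LPS responses, 6 to 22 after Poly(I:C), 0 to 1 in females at 12 months, 1 to 14 in males at 12 months, 15 to 21 in females and 18 to 25 in males at 24 months, and 0 to 1 lower between the sexes. The genes called that kept their call without each library in turn were 12 of 14 for pulldown against input, 6 of 10 for LPS in sorted cells, 5 of 16 after Poly(I:C), 15 of 22 in females and 15 of 21 in males at 24 months, and 0 of 3 for LPS in pulldowns. Causes were not tested. Depth limits the low genes most; a proteasome gene had as few as 1 read in a library.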
